A study of Mus musculus with 6 samples.

Results

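The genes described here are 9 receptors of the tumour necrosis factor (TNF) receptor superfamily that T cells are known to use: Tnfrsf9, Tnfrsf4, Tnfrsf18, Tnfrsf1b, Cd27, Tnfrsf14, Tnfrsf1a, Tnfrsf25 and Fas. They were chosen by symbol, with earlier results of these data known. Each had 1 probe set with 1 gene symbol, so 9 of 19938 measured genes are described and none was lost. All 9 had a mean above that of the median gene. Expression was measured on Affymetrix arrays in naive CD4 T cells that were sorted as lacking or carrying Ly-6C, a lipid-anchored surface protein, with 3 arrays of Ly-6C-negative cells and 3 arrays of Ly-6C-positive cells. Both populations were TCRβ+ CD4+ cells with low CD44 that lacked CD8, CD25 and Foxp3. The donors were C57BL/6 Foxp3-GFP mice, 6 weeks old, whose Foxp3 reporter marks regulatory T cells by green fluorescence, and the tissue was peripheral lymph nodes. No treatment is given for either population. The labels call the arrays biological replicates and do not say which mice gave which cells or whether mice were pooled, so p-values measure the spread between these arrays, and their number limits the precision of every value. The comparison asks how each receptor transcript differs between Ly-6C-negative and Ly-6C-positive naive cells, and differences are given on the log2 scale as the Ly-6C-negative mean minus the Ly-6C-positive mean.

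Receptors of this superfamily bind ligands of the TNF family through cysteine-rich repeats outside the cell. One branch, which includes 4-1BB, OX40, GITR, CD27 and TNF receptor 2, recruits TRAF adaptors and activates NF-κB, and it gives costimulatory signals for survival and division after antigen has been seen. The other branch, which includes Fas, TNF receptor 1 and DR3, carries a death domain inside the cell and can start apoptosis or NF-κB signalling, depending on the adaptors that are bound. Naive T cells hold CD27 and HVEM at their surface, whereas 4-1BB and OX40 are known as receptors that appear after activation.

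The table has no zero level and its lowest value was 2.47. The T cell receptor complex gene Cd3e averaged 11.76 ± 0.19 in Ly-6C-negative cells and 11.78 ± 0.067 in Ly-6C-positive cells (SD, n = 3 each), and the B cell gene Ms4a1 averaged 4.27 ± 0.10 in Ly-6C-negative cells and 4.17 ± 0.14 in Ly-6C-positive cells (SD, n = 3 each). The first principal component of all genes held 34.6% of the variance and had Ly-6C-negative replicate 2 at 19.9, with the other 5 arrays between -10.0 and -0.26. Results that turn on that array are given with and without it.

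Of the 9 receptors, Tnfrsf9 had more transcript in Ly-6C-negative cells, 1.41-fold, and passed the test over all genes. Tnfrsf4 and Tnfrsf1b also had every Ly-6C-negative array above every Ly-6C-positive array, by 1.31-fold and 1.43-fold, but did not pass. The other 6, among them Tnfrsf18, Cd27 and the death receptor genes Fas, Tnfrsf1a and Tnfrsf25, had overlapping groups and differences between -0.034 and 0.057. The test was limma's moderated test with a threshold of adjusted p 0.05 over all genes, and 1 of 9 receptors was higher and 0 lower, against 0.1% of all genes higher and 0.0451% lower. Groups that did not overlap, with Ly-6C-negative above, were seen in 3 of 9 receptors and in 6.12% of all genes. The opposite order was seen in 0 of 9 receptors and in 6.5% of all genes, and either order in 12.6% of all genes. Because the receptors were chosen with earlier results of these data known, these shares do not test the 9 as a set. The median difference of the 9 receptors was 0.041 with 6 of 9 above 0, and that of all genes was -0.0048 with 47.8% above 0. In these sorted populations, fewer cells with a transcript and less transcript per cell cannot be told apart.

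**Figure D1:**
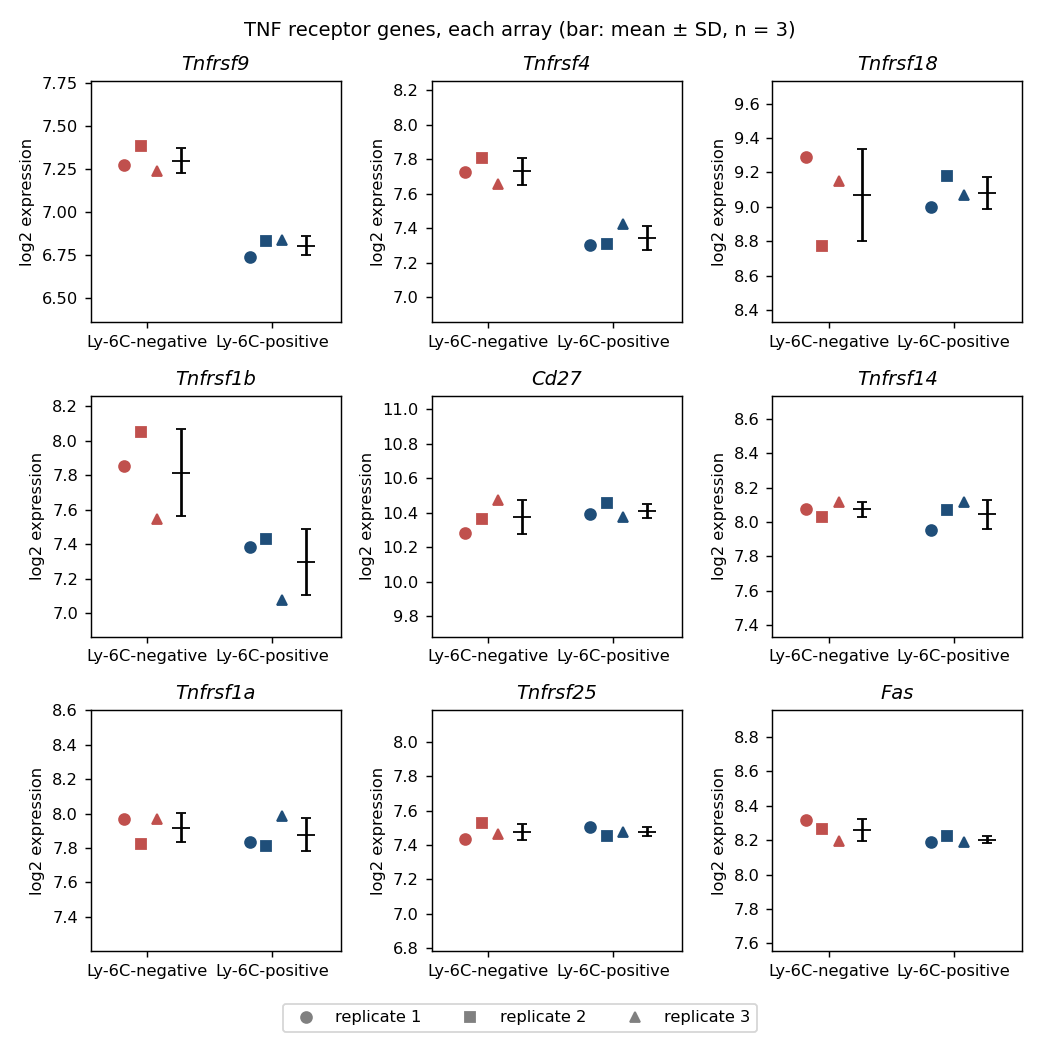
Log2 expression of the 9 receptor genes on each array, with Ly-6C-negative arrays left and Ly-6C-positive arrays right in every panel; symbols mark the replicate number, and the bars give mean ± SD over 3 arrays. Each panel spans the same log2 range around its own centre. The groups are apart in Tnfrsf9, Tnfrsf4 and Tnfrsf1b and overlap in the other 6 panels.

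Tnfrsf9 encodes 4-1BB, also called CD137, a costimulatory receptor that binds the ligand encoded by Tnfsf9. Its probe set 10510580 measured 7.27, 7.38 and 7.24 on Ly-6C-negative replicates 1, 2 and 3, and 6.74, 6.83 and 6.84 on Ly-6C-positive replicates 1, 2 and 3. The lowest Ly-6C-negative array lay above the highest Ly-6C-positive array, and the means were 7.30 ± 0.074 in Ly-6C-negative cells and 6.80 ± 0.056 in Ly-6C-positive cells (SD, n = 3 each). The difference was 0.50 with a standard error of 0.070 and a 95% interval of 0.34 to 0.65 (limma adjusted p = 0.0325). By its p-value Tnfrsf9 stood at place 25 of 19938 genes. The differences of same-numbered arrays were 0.53, 0.55 and 0.40 for replicates 1, 2 and 3. The call was lost when Ly-6C-negative replicate 1 (limma adjusted p = 0.165) or 3 (0.0607) was left out, and without Ly-6C-positive replicate 1 (0.239), 2 (0.220) or 3 (0.199). It was kept, with a difference of 0.45, when Ly-6C-negative replicate 2 was left out (limma adjusted p = 0.0437). Over the 6 fits that left out 1 array, the difference lay between 0.45 and 0.52.

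RefSeq (GRCm38.p6) gives Tnfrsf9 a pair of start sites, and the windows around them are shown with those of Tnfrsf4 and Tnfrsf1b, since these are the receptors whose groups did not overlap. Each window runs from 250 bases before a start to 50 bases after it, 5′ to 3′ on the gene's strand. Capitals mark matches, on either strand, to the NF-κB consensus or to the AP-1 motif TGANTCA, which are known binding motifs of factors that act downstream of T cell activation.
Tnfrsf9 upstream start, chr4:150919905-150920204 (+ strand): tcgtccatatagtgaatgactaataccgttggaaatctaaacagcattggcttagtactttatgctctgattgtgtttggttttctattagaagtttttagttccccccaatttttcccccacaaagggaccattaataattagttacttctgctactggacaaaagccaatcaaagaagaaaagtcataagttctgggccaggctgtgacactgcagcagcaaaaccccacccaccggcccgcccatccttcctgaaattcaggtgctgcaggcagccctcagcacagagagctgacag
Tnfrsf9 downstream start, chr4:150927749-150928048 (+ strand): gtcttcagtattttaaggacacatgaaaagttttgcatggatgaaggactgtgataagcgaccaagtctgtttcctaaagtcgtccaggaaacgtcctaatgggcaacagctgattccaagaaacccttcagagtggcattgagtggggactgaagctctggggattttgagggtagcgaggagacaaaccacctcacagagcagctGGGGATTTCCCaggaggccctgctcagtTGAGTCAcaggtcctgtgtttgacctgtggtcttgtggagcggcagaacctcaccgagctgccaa
Tnfrsf4, chr4:156013445-156013744 (+ strand): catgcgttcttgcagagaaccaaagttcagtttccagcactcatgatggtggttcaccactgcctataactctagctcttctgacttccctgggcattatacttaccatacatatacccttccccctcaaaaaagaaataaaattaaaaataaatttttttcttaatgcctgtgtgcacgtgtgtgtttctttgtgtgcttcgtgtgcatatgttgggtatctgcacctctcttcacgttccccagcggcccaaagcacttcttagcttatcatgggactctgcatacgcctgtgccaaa
Tnfrsf1b, chr4:145246821-145247120 (- strand): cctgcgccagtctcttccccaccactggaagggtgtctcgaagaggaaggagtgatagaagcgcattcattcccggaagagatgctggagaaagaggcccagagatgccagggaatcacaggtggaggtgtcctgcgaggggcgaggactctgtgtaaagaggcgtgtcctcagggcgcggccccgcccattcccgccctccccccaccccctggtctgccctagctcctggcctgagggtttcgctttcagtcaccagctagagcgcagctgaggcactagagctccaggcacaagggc
The window at the downstream Tnfrsf9 start held 2 overlapping matches to the NF-κB consensus and 1 match to the AP-1 motif, and the motifs did not overlap each other. No match to either motif was found in the upstream Tnfrsf9 window or in the windows of Tnfrsf4 and Tnfrsf1b. Of all 32851 promoter windows of this length, 8.46% held the NF-κB consensus and 7.81% held the AP-1 motif. Over the 11 windows of the 9 receptors, 2 held the NF-κB consensus and 2 held the AP-1 motif, the others being a Tnfrsf25 window and the Fas window, genes whose groups overlapped. These matches describe letters in a window and do not show binding.

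Tnfrsf4 encodes OX40, a costimulatory receptor that prolongs the survival of activated CD4 T cells. Its probe set 10511282 measured 7.73, 7.81 and 7.66 on Ly-6C-negative replicates 1, 2 and 3, and 7.30, 7.31 and 7.42 on Ly-6C-positive replicates 1, 2 and 3. The groups did not overlap, and the means were 7.73 ± 0.077 in Ly-6C-negative cells and 7.34 ± 0.068 in Ly-6C-positive cells (SD, n = 3 each). The difference was 0.39 with a standard error of 0.071 and a 95% interval of 0.23 to 0.55, and it did not pass over all genes (limma adjusted p = 0.139). By its p-value Tnfrsf4 stood at place 49. Its adjusted p did not fall below the threshold under any of 14 alternatives, with a lowest value of 0.0587 when arrays were weighted and a highest of 0.619 without Ly-6C-positive replicate 2.

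Tnfrsf18 encodes GITR, a costimulatory receptor whose gene is the next protein-coding gene after Tnfrsf4 on chromosome 4 of the RefSeq annotation. Its probe set 10511290 measured 9.29, 8.77 and 9.15 on Ly-6C-negative replicates 1, 2 and 3, and 8.997, 9.18 and 9.07 on Ly-6C-positive replicates 1, 2 and 3. Ly-6C-negative replicate 2 was the lowest of the 6 arrays and Ly-6C-negative replicate 1 the highest, so the Ly-6C-negative values enclosed the Ly-6C-positive ones. The difference was -0.012 with a 95% interval of -0.29 to 0.26 (limma adjusted p = 0.996), the widest interval among the 6 receptors with overlapping groups. With Ly-6C-negative replicate 2 left out, the difference was 0.14 (limma adjusted p = 0.641).

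Tnfrsf1b encodes TNF receptor 2, the TNF receptor without a death domain. Its probe set 10518300 measured 7.85, 8.05 and 7.54 on Ly-6C-negative replicates 1, 2 and 3, and 7.38, 7.43 and 7.08 on Ly-6C-positive replicates 1, 2 and 3. Replicate 2 was the highest array and replicate 3 the lowest in both populations, and the groups did not overlap. The means were 7.82 ± 0.25 in Ly-6C-negative cells and 7.30 ± 0.19 in Ly-6C-positive cells (SD, n = 3 each), a difference of 0.52 with a standard error of 0.13 and a 95% interval of 0.22 to 0.82, which did not pass over all genes (limma adjusted p = 0.426). The differences of same-numbered arrays were 0.47, 0.62 and 0.47 for replicates 1, 2 and 3. With the replicate number as a block the standard error was 0.075 and Tnfrsf1b passed (limma adjusted p = 0.0295), which made 2 of 9 receptors past the threshold, against 0.206% of all genes with the block. Over the 14 alternatives its adjusted p lay between 0.0295 and 0.885, and it passed with the block and with no other. Without Ly-6C-negative replicate 2 the difference was 0.40, and without Ly-6C-negative replicate 3 it was 0.65.

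**Figure D2:**
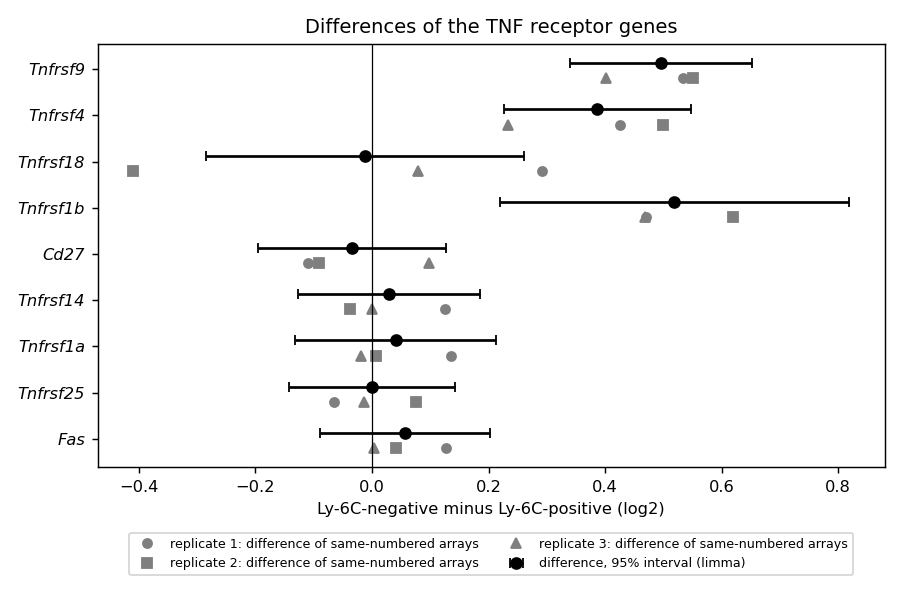
Difference of each receptor gene between Ly-6C-negative and Ly-6C-positive arrays on the log2 scale. Black points and bars give the limma difference and its 95% interval over 3 arrays a group, and grey symbols give the differences of same-numbered arrays. The intervals of Tnfrsf9, Tnfrsf4 and Tnfrsf1b lie above 0, and those of the other 6 receptors span 0.

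Tnfrsf1a encodes TNF receptor 1, the death domain receptor for the same ligand. Its probe set 10541895 measured 7.97, 7.82 and 7.97 on Ly-6C-negative replicates 1, 2 and 3, and 7.83, 7.81 and 7.99 on Ly-6C-positive replicates 1, 2 and 3. The groups overlapped, and the difference was 0.041 with a 95% interval of -0.13 to 0.21 (limma adjusted p = 0.959).

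The remaining death domain receptors also had overlapping groups. Fas, which starts apoptosis of activated T cells when it binds Fas ligand, measured 8.32, 8.27 and 8.19 on Ly-6C-negative replicates 1, 2 and 3, and 8.19, 8.23 and 8.19 on Ly-6C-positive replicates 1, 2 and 3. Its difference was 0.057 with a 95% interval of -0.089 to 0.20 (limma adjusted p = 0.924). Tnfrsf25, which encodes DR3, the receptor for TL1A, averaged 7.48 ± 0.047 in Ly-6C-negative cells and 7.48 ± 0.025 in Ly-6C-positive cells (SD, n = 3 each). Its interval of -0.14 to 0.14 around a difference of -0.00053 was the narrowest of the 9 receptors (limma adjusted p = 0.999).

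Cd27 and Tnfrsf14, the receptors that naive T cells are known to hold, had overlapping groups as well. Cd27, whose product binds CD70 and supports the survival of newly activated T cells, averaged 10.38 ± 0.097 in Ly-6C-negative cells and 10.41 ± 0.041 in Ly-6C-positive cells (SD, n = 3 each). Its difference was -0.034 with a 95% interval of -0.20 to 0.13 (limma adjusted p = 0.966). Tnfrsf14, which encodes HVEM, the receptor for LIGHT and the partner of the inhibitory receptor BTLA, averaged 8.07 ± 0.043 in Ly-6C-negative cells and 8.04 ± 0.083 in Ly-6C-positive cells (SD, n = 3 each). Its difference was 0.029 with a 95% interval of -0.13 to 0.19 (limma adjusted p = 0.970). Over the 6 receptors with overlapping groups, the 95% intervals together ran from -0.29 to 0.26, so larger differences in either direction lay outside every interval. All 3 differences of same-numbered arrays were above 0 in 4 of 9 receptors, Tnfrsf9, Tnfrsf4, Tnfrsf1b and Fas, and in 13.3% of all genes. For Tnfrsf9, Tnfrsf4 and Tnfrsf1b this follows from groups that did not overlap and is no further support.

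The other genes of the pathway did not pass the test in either direction. Of 19 other receptors of the superfamily, all measured, 0 passed, against 0.145% of all genes past the threshold in either direction. With a share that low, 0 calls in a list of this length says little, and the same holds for the ligand and adaptor lists. Among the 19, 4 had a difference above 0, against 47.8% of all genes, and the median was -0.031. The differences ran from -0.28 for Tnfrsf10b, the mouse TRAIL death receptor gene, to 0.041, and Tnfrsf22, a mouse decoy receptor gene for TRAIL, differed by -0.18 (limma adjusted p = 0.872 and 0.817 for Tnfrsf10b and Tnfrsf22). Tnfrsf8, which encodes CD30 and is the next protein-coding gene after Tnfrsf1b, measured 5.58 ± 0.016 in Ly-6C-negative cells and 5.63 ± 0.040 in Ly-6C-positive cells (SD, n = 3 each), with overlapping groups. In these 3 lists of pathway genes the unadjusted limma p was under 0.05 for 5 genes, Tnfsf9, Fasl, Tank, Tab3 and Mapk8, of 63 measured, against 6.71% of all genes. Groups did not overlap, with Ly-6C-negative above, in 0 of 19 other receptors, 1 of 11 ligand genes and 3 of 33 adaptor genes. The share of all genes was 6.12%. The opposite order was seen in 1 other receptor, Cd40 at -0.031, 1 ligand gene and 0 adaptor genes, against 6.5% of all genes.

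Among 11 measured ligand genes, Btla included, 0 passed and the median difference was -0.089. Tnfsf9, which encodes the ligand of 4-1BB, measured 5.33, 5.28 and 5.27 on Ly-6C-negative replicates 1, 2 and 3, and 5.12, 5.12 and 5.08 on Ly-6C-positive replicates 1, 2 and 3. These groups did not overlap, and the difference was 0.19 (limma adjusted p = 0.588). All 6 values lay below the mean of the median gene, 6.37. Fasl, which encodes Fas ligand, averaged 7.37 ± 0.11 in Ly-6C-negative cells and 7.57 ± 0.032 in Ly-6C-positive cells (SD, n = 3 each), and all Ly-6C-negative arrays lay below all Ly-6C-positive arrays (limma adjusted p = 0.644). Ltb, which encodes lymphotoxin beta, differed by -0.14 and Tnfsf14, which encodes LIGHT, by -0.13, both with overlapping groups.

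Among the TRAF adaptors, kinases, caspases and NF-κB proteins, 33 of 37 genes were measured and 0 passed, with a median difference of 0.025 and 20 genes above 0. Tank, a TRAF-binding regulator of NF-κB and interferon signalling, averaged 9.41 ± 0.14 in Ly-6C-negative cells and 9.07 ± 0.058 in Ly-6C-positive cells (SD, n = 3 each). Its groups did not overlap, and the difference was 0.34 (limma adjusted p = 0.358). Tab3, an adaptor of the TAK1 kinase, and Mapk8, the gene of the kinase JNK1, differed by 0.18 and 0.16, with groups that did not overlap (limma adjusted p = 0.712 and 0.742). Nfkbia, a feedback inhibitor that NF-κB induces, differed by 0.12, and Nfkb2 by -0.0084, both with overlapping groups. The replicate block left each of these 3 lists at 0 genes past the threshold, against 0.206% of all genes with the block. Traf3, Ripk1, Chuk and Nfkb1 were not analysed here.

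**Figure D3:**
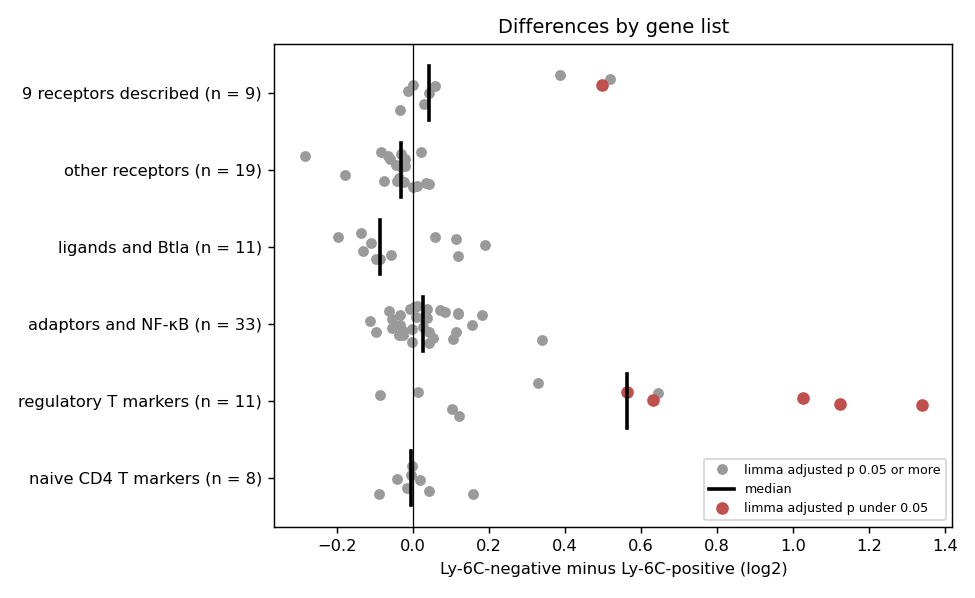
Differences between Ly-6C-negative and Ly-6C-positive arrays on the log2 scale, 1 point per gene, for the 9 receptors, the other pathway lists and 2 marker lists; red points passed a limma adjusted p of 0.05 and black bars give the median. The other receptors, ligands and adaptors lie between -0.28 and 0.34 with no gene past the threshold, and the regulatory T cell markers have a median of 0.56.

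Part of the regulatory T cell marker list moved in the same direction as Tnfrsf9. Of 11 such markers, 5 were higher (Il2rb, Izumo1r, Ctla4, Ikzf2 and Gpr83) and 0 lower, against 0.1% of all genes higher. With the replicate block Icos made 6, against 0.14% of all genes. Because the marker lists here and below were chosen with earlier results of these data known, these shares do not test them as sets. Itgae, which encodes the integrin chain CD103, differed the other way by -0.088, with every Ly-6C-negative array below every Ly-6C-positive array (limma adjusted p = 0.886). The summed linear level of the 11 markers lay between 2836 and 3331 in Ly-6C-negative arrays and between 1706 and 1851 in Ly-6C-positive arrays, so these groups did not overlap. Bright genes such as Icos and Ctla4 weigh most in that sum. Foxp3, which defines the lineage, measured 6.85, 6.47 and 6.70 on Ly-6C-negative replicates 1, 2 and 3, and 6.71, 6.57 and 6.69 on Ly-6C-positive replicates 1, 2 and 3, with overlapping groups. Il2ra, which encodes CD25, averaged 5.41 ± 0.18 in Ly-6C-negative cells and 5.29 ± 0.23 in Ly-6C-positive cells (SD, n = 3 each), with overlapping groups. Of 9 measured markers of activated or memory T cells, 0 passed limma's test and 5 had an unadjusted p under 0.05, against 6.71% of all genes. Of these 5, Cd5, Nr4a1, Mki67 and Il2 had differences above 0, and Cd44, which was used in the sort, differed by -0.25 without overlap of the groups (limma adjusted p = 0.427). The summed level of the 9 markers lay between 4503 and 5050 in Ly-6C-negative arrays and between 4201 and 4458 in Ly-6C-positive arrays. The part of these markers in the values of Tnfrsf9, Tnfrsf4 and Tnfrsf1b was not tested.

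Among markers of other cells, those that passed were lower in Ly-6C-negative cells. Of 9 markers of CD8 T and NK cells, 0 were higher and 2, Klrd1 and Gzma, were lower, against 0.1% and 0.0451% of all genes. Their summed level lay between 773 and 934 in Ly-6C-negative arrays and between 1086 and 1296 in Ly-6C-positive arrays. With the replicate block, Prf1 made 3 lower, against 0.206% of all genes past the threshold in either direction. For this and the other lists of this paragraph, the share of all genes with an unadjusted p under 0.05 was 6.71%. At an unadjusted p under 0.05 there were 4 of 9, and Eomes, a T-box factor gene, was the one above 0, at 0.27, with every Ly-6C-negative array above every Ly-6C-positive array (limma adjusted p = 0.473). Of 7 measured B cell markers, 0 passed limma's test and 1 had an unadjusted p under 0.05, and the summed level lay between 267 and 272 in Ly-6C-negative arrays and between 270 and 272 in Ly-6C-positive arrays. Of 10 myeloid and dendritic markers, 0 passed limma's test and 2 had an unadjusted p under 0.05, with a summed level between 973 and 1205 in Ly-6C-negative arrays and between 1102 and 1214 in Ly-6C-positive arrays. Of 8 measured markers of naive CD4 T cells, 0 passed limma's test and 1 had an unadjusted p under 0.05, with a summed level between 22079 and 24508 in Ly-6C-negative arrays and between 22657 and 23891 in Ly-6C-positive arrays.

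The genes whose profile over the 6 arrays lay nearest to each of the 3 receptors were found by the root mean square difference of log2 values, each gene centred on its own mean. Nearest to Tnfrsf9 were Sypl, a gene of a synaptophysin-like membrane protein, at 0.063, Tnfrsf4 at 0.064 and Gpr83, a G protein-coupled receptor gene, at 0.066, where the median gene lay at 0.27. Nearest to Tnfrsf4 were A630072M18Rik at 0.029, the centrosome gene Cep152 at 0.054 and Nr4a1, the gene of the T cell receptor-induced factor Nur77, at 0.054, where the median gene lay at 0.22. Nearest to Tnfrsf1b were Id2, an inhibitor of E protein transcription factors, at 0.074, Neurl3 at 0.078 and Dscc1, a sister chromatid cohesion gene, at 0.090, where the median gene lay at 0.33. The groups did not overlap in any of these 9 genes, against 12.6% of all genes, and nothing is read from this, since the genes were chosen for likeness to receptors whose groups do not overlap. A group difference of similar size brings profiles close, so this measure describes likeness over 6 arrays and no more.

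**Figure D4:**
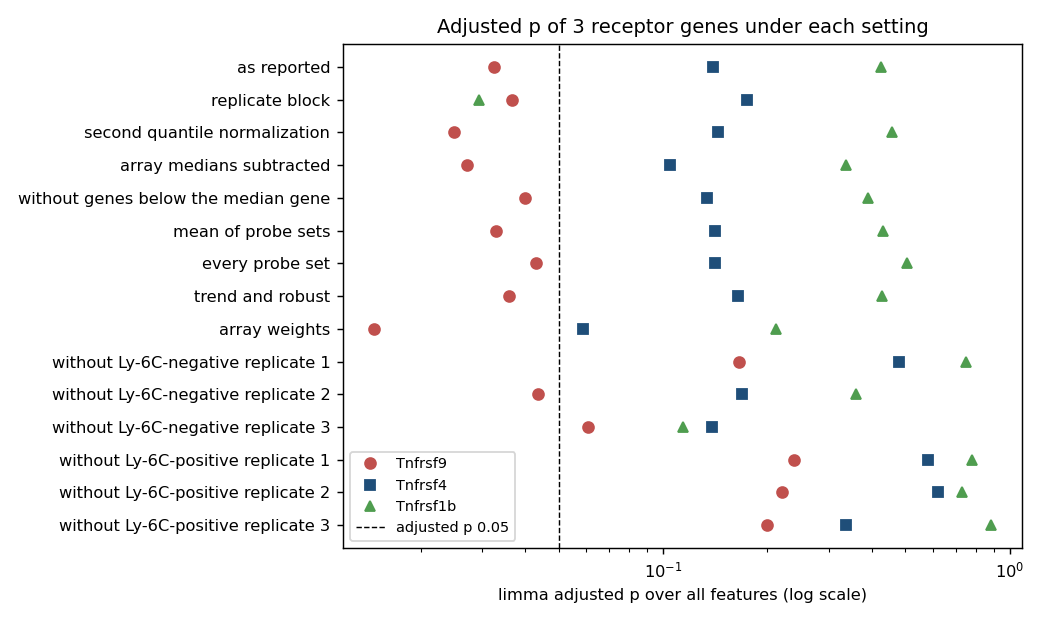
Limma adjusted p of Tnfrsf9, Tnfrsf4 and Tnfrsf1b on a log axis as reported and under each of 14 alternatives, with a dashed line at 0.05. Tnfrsf9 lies left of the line except in 5 of the 6 fits without 1 array, Tnfrsf1b lies left of it with the replicate block, and Tnfrsf4 lies right of it under each setting.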

How the data were processed

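RNA of sorted naive CD4 T cells was measured on 6 Affymetrix arrays. Per the labels' protocols, 50 ng of total RNA was amplified, and biotin was attached to 5 µg of cDNA. The submitters' processing notes name RMA and Partek without versions or roles. The deposited values are log2 expression per probe set, 2.47 to 13.6, and were used as deposited. RMA makes array distributions alike, so a true shift shared by all genes cannot be read from these values. The array medians still differed slightly. They lay between 6.252 and 6.274 on Ly-6C-negative arrays and between 6.276 and 6.287 on Ly-6C-positive arrays, and the reason was not tested. Of 28853 probe sets, 21789 carry 1 symbol in the platform annotation and were named through it and by Entrez ID. The brightest probe set per gene was kept, which gave 19938 genes. The test was limma (version 3.58.1, R version 4.3.3; lmFit, eBayes, 2-sided, no covariate), with Benjamini-Hochberg adjustment over all genes. The steps were tested on simulated data.

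Every array value is given for receptors with a call or among the 4 smallest p, and also for Tnfrsf18 and Tnfrsf1a, chosen after their values were seen; up to 4 genes per list are named by smallest p, and genes named beyond that are defining markers, feedback genes and neighbours chosen after their values were seen. The members and lists were chosen with earlier results of these data known. Deviations from group means correlated between same-numbered arrays with r of 0.129, 0.128 and 0.107 for replicates 1, 2 and 3. Between differently numbered arrays r lay between -0.107 and -0.011. Deviations sum to 0 within a group, so values above 0 for same-numbered arrays come with values below 0 elsewhere. These values were taken as pairing, which was not tested and is not stated by the labels. The replicate block is therefore an alternative and not the main test. Slide and scan batches were not given in the sources used here. Promoter windows and gene order are RefSeq's, GRCm38.p6; the array's own build is not given in the sources used here. Figures were drawn with matplotlib 3.10.9.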

Additional observations from a re-analysis of the deposited data

How the results depend on the processing

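All alternatives were planned. Tnfrsf9, Tnfrsf4, Tnfrsf1b, Tnfrsf1a and Fas kept a difference above 0 under all 14 alternatives. With the replicate block, 2 of 9 receptors passed instead of 1, Tnfrsf1b being added, and the block changed no other receptor's call. Leaving out 1 array gave 0 to 1 receptors past the threshold and 5 to 47 of all genes, where 29 of all genes passed with every array. The count of 47 came without Ly-6C-negative replicate 2, and the other fits without 1 array gave 5 to 21. Testing all probe sets singly gave 45 calls and array weights gave 54 genes. Differences near 0 changed sign: Tnfrsf18 was at 0.0089 with array medians subtracted, 0.075 with array weights and between -0.12 and 0.14 without 1 array, Tnfrsf25 at 0.021 with array medians subtracted and between -0.026 and 0.019 without 1 array, Tnfrsf14 between -0.017 and 0.064 and Cd27 between -0.085 and 0.012 without 1 array; none of these values passed. Fits without 1 array test fewer samples, and the cause of the changes between settings was not tested. Array medians subtracted moved the median of all genes to 0.017. The table gives no background level, so how far a dim probe set stands above background is unknown.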

Other observations

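The 9 receptor genes share chromosomes in the RefSeq annotation: 6 lie on chromosome 4, 2 on chromosome 6 and Fas on chromosome 19. The nearest measured protein-coding genes on each side make 16 distinct genes that are not among the 9. Of these, 0 passed the limma threshold, with or without the replicate block. Of all genes, 0.145% passed, or 0.206% with the block, so 0 of 16 says little about the neighbours. The lowest adjusted p was 0.173, for Dhrs3, a retinal reductase gene that lies beside Tnfrsf1b. Dhrs3 averaged 6.70 ± 0.077 in Ly-6C-negative cells and 6.32 ± 0.097 in Ly-6C-positive cells (SD, n = 3 each), a difference of 0.39 with groups that did not overlap. The neighbours of Tnfrsf9, Park7 and Per3, differed by -0.11 and -0.029, and those of Tnfrsf4 were Sdf4 at -0.037 and Tnfrsf18 at -0.012, all with overlapping groups. Prxl2b, beside Tnfrsf14, averaged 6.61 ± 0.21 in Ly-6C-negative cells and 7.04 ± 0.065 in Ly-6C-positive cells (SD, n = 3 each), without overlap (limma adjusted p = 0.357). In all, 6 of 16 neighbours had groups that did not overlap, in either direction, against 12.6% of all genes.

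Within-array log2 differences between receptor genes were compared between the groups for 3 pairs chosen after the values were seen. Each pair set a receptor whose groups did not overlap against one whose groups overlapped. That choice fixed the direction in advance, so nothing is concluded from the p-values. Tnfrsf4 minus Tnfrsf18, neighbours on chromosome 4, was -1.56, -0.96 and -1.49 on Ly-6C-negative replicates 1, 2 and 3, and -1.70, -1.87 and -1.65 on Ly-6C-positive replicates 1, 2 and 3. The groups did not overlap, and the exact two-sided permutation p was 0.1, the smallest that 3 against 3 arrays can give. Tnfrsf9 minus Tnfrsf18 also gave an exact permutation p of 0.1, with a difference of 0.51 between the groups. The size of these contrasts depended on Ly-6C-negative replicate 2, where Tnfrsf18 was lowest. Without it the difference between the groups was 0.21 for Tnfrsf4 minus Tnfrsf18, against 0.40 with it. For Tnfrsf9 minus Tnfrsf18 it was 0.32, against 0.51. The groups stayed apart without that array in both contrasts. Tnfrsf1b minus Tnfrsf1a, the receptors for TNF, averaged -0.10 ± 0.33 on Ly-6C-negative arrays and -0.58 ± 0.29 on Ly-6C-positive arrays (SD, n = 3 each), with overlapping groups and an exact permutation p of 0.2. That test does not use the replicate numbers, whose pairing the labels do not state. The differences of same-numbered arrays were 0.33, 0.61 and 0.49 for replicates 1, 2 and 3. Without Ly-6C-negative replicate 2 the difference between the groups was 0.31, against 0.48 with it. Adjusted over the 3 pairs the values were 0.15, 0.15 and 0.2, and this design cannot reach 0.05.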
